A study of Arabidopsis thaliana with 9 samples.

Results

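Root tips of an Arabidopsis thaliana line that overexpresses ERF115 were set against wild-type root tips of the same accession, to find which transcripts differ when this transcription factor is present in excess. The comparison uses 6 of the 9 arrays of the series, chosen by their titles, with 3 of the overexpressor and 3 of wild type. The overexpressor carries the ERF115 open reading frame behind p35S, a viral promoter that is active in most plant cells, so the transgene is not limited to the cells that normally use the gene. The other line is erf115, an insertion mutant (SALK_021981). Its 3 arrays share the estimate of the spread, and their values are given for some of the genes. Wild type is Col-0. All plants were 5 days old and untreated, and root tips 3 mm long were cut off with scalpels and frozen. The labels name no number of plants per array, no number of independent transgenic lines and no separate cultures. P-values therefore reflect only how much these arrays vary, which may be technical.

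ERF115 belongs to the AP2/ERF family of plant transcription factors. It is known as a rate-limiting factor for divisions of the quiescent centre, the slowly dividing cells at the heart of the root stem cell niche, and for the replacement of stem cells after damage. Genes of phytosulfokine, a secreted peptide that promotes growth, are among its known targets. No probe set carries the name ERF115 in the tables used, so its transcript could not be picked out here. The labels were not checked against its level. An unnamed probe set may still measure it.

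Against wild type, the overexpressor had 854 higher (3.75%) and 387 lower (1.70%) transcripts among 22746 probe sets (limma, Benjamini-Hochberg adjusted p under 0.05). In either direction this is 1241 probe sets, or 5.46%. With each array centred on its median the counts were 753 and 576, so that higher calls made up 56.7% of all calls in place of 68.8%. At least 2-fold differences were found for 158 higher (0.695%) and 24 lower (0.106%) probe sets. Of the probe sets, 13436 carry 1 gene name each, and 425 of these (3.16%) were higher and 211 (1.57%) lower. Without regard to the test, all 3 overexpressor arrays lay above all 3 wild-type arrays in 9.26% of probe sets and below them in 10.6%, so separate arrays alone are common. The increases were also larger: 16 of the higher calls exceeded a log2 difference of 2, against 1 of the lower calls, and the median size was 0.62 for higher and 0.45 for lower calls. The 3 overexpressor arrays did not move by quite the same amount, with a median distance from the wild-type mean over the higher calls of 0.58, 0.70 and 0.63, and the second array lay farthest in 493 of 854.

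**Figure D1:**
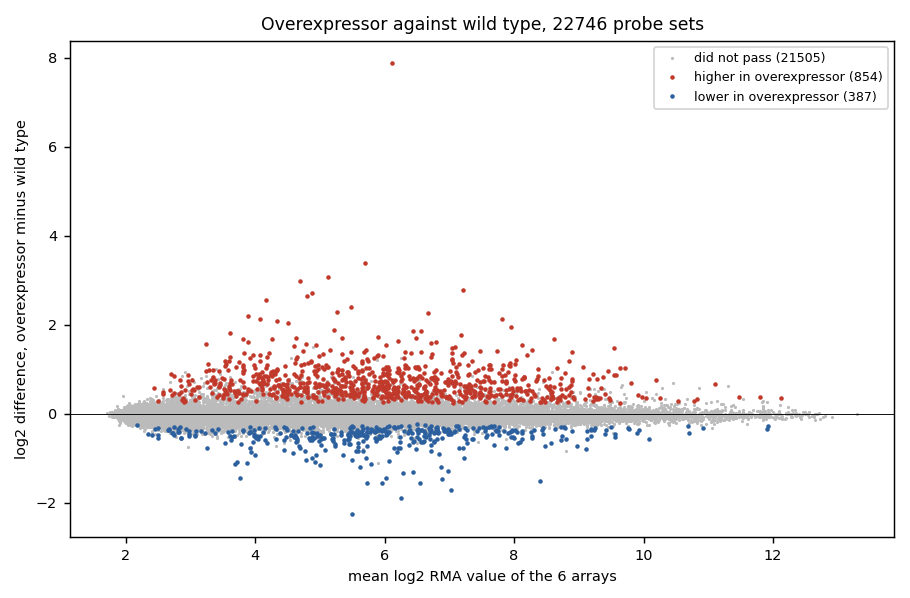
Log2 difference of overexpressor minus wild type (vertical axis) against the mean log2 RMA value of the 6 arrays (horizontal axis), 1 point per probe set. The 854 higher calls reach up to 7.88 and the 387 lower calls down to -2.25, and calls occur across the range of levels.

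The arrays are alike in scale, with medians between 5.045 and 5.13. Correlations across probe sets, which are not independent replicates, were 0.9902 to 0.9938 between overexpressor and wild-type arrays and 0.9955 to 0.9981 within a genotype. As a sign of RNA quality, the actin controls were compared between their 3' and 5' ends, and the difference was 3.19 ± 0.13 in the overexpressor and 3.26 ± 0.08 in wild type (log2, SD, n = 3 each; exact two-sided permutation p = 0.5). For GAPDH it was 0.41 ± 0.05 in the overexpressor and 0.54 ± 0.09 in wild type, with no overlap (exact two-sided permutation p = 0.1, the smallest that 3 against 3 arrays allow). These values average 2 control pairs per gene, and they depend on the pair. With the Athal pair alone the exact permutation p was 0.9 for actin and 0.2 for GAPDH, and with the r2 pair alone it was 0.2 for actin and 0.9 for GAPDH. The part of RNA quality in the results below was not tested.

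Markers of root cell types were measured unevenly. Their counts stand beside 3.75% higher and 1.70% lower calls over all probe sets. All 3 measured root hair markers were higher in the overexpressor. EXPA7, a root hair expansin, had 8.85, 9.10 and 8.85 in the overexpressor, against 8.02, 8.19 and 8.17 in wild type. EXPA18, its close relative, had 8.82, 8.89 and 8.66 in the overexpressor, against 7.66, 7.76 and 8.42 in wild type, and the peroxidase AT4G26010 had 9.53, 9.91 and 9.58, against 8.39, 8.78 and 9.16. In all 3 genes the overexpressor arrays lay above all wild-type arrays, as in 9.26% of all probe sets. The third wild-type array was the highest of its group for EXPA18 and AT4G26010. EXPA7 kept its call in every alternative, but only 1 of the 3 markers passed without wild-type replicate 1, without wild-type replicate 2 or without overexpressor replicate 2. In these bulk samples a change in the number of root hair cells and a change of RNA per cell cannot be told apart. Of 2 genes that mark the stem cell niche, 1 passed: AGL42, which encodes a MADS-box factor found in the quiescent centre, decreased by 0.52 (SE 0.09, adjusted p = 0.00789), with 4.58, 4.62 and 4.66 in the overexpressor, against 5.31, 4.93 and 5.17 in wild type. Neither of 2 cortex markers, nor the 1 marker of green tissue, nor any of 3 genes of the G2 and M phases passed. None of the genes looked up for the root cap (4 genes), endodermis (7), phloem (3), xylem (7) or non-hair epidermis (1) was measured under a name here, so shifts in those cells were not analysed.

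Among the families counted, class III peroxidases had the most increases. They are secreted enzymes that use hydrogen peroxide to cross-link or loosen wall polymers. Of 55 measured, 12 were higher and 3 lower, against 3.75% and 1.70% of all probe sets, and the median difference was 0.09 against -0.02 over all. The root hair marker AT4G26010 above is a peroxidase of this class too, so this count and that of the markers are not independent. AT4G36430 had 6.63, 7.07 and 6.28 in the overexpressor, against 3.54, 3.59 and 3.60 in wild type. AT5G39580 had 5.71, 6.40 and 6.58 in the overexpressor, against 3.10, 3.56 and 3.88 in wild type. In both genes every overexpressor array stood far above every wild-type array, compared with the spread within either genotype. Prx37 was much less different, with 7.59, 7.61 and 7.69 in the overexpressor, against 6.83, 6.52 and 6.36 in wild type (1.06, SE 0.12, adjusted p = 0.000916). AT1G14550 (1.02, SE 0.15), AT2G37130 (0.87, SE 0.15) and AT5G51890 (0.85, SE 0.14) rose by similar amounts. The higher count ranged from 7 to 15 when single arrays were left out: it was 7 without wild-type replicate 1, wild-type replicate 2 or overexpressor replicate 2. The lower count was 1 without overexpressor replicate 2. With only the 6 arrays compared, 8 peroxidases were higher and 2 lower.

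**Figure D2:**
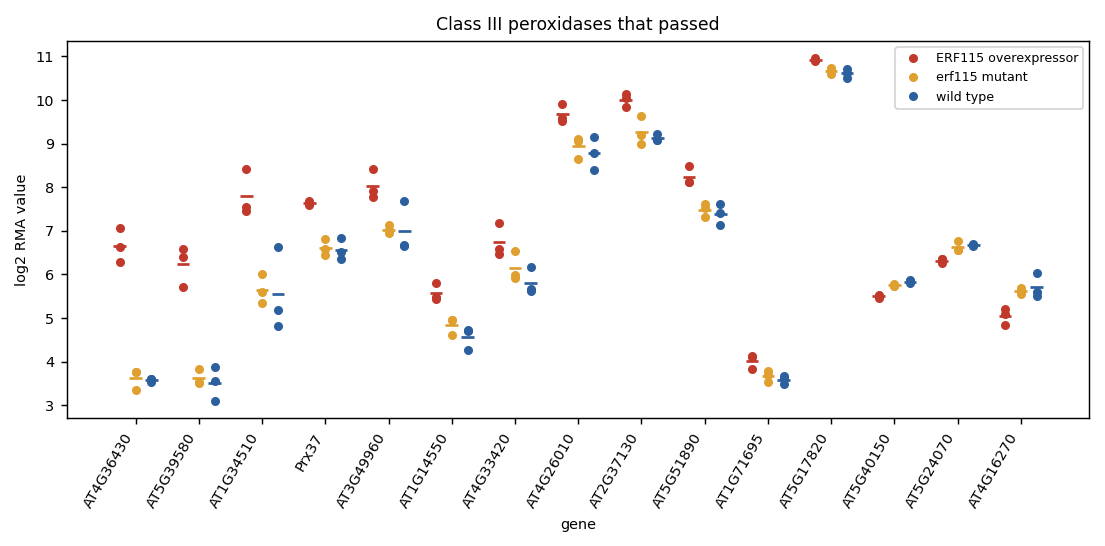
Log2 RMA values of the 15 class III peroxidases that passed, 1 point per array and a bar for the mean, with the overexpressor left, the mutant next and wild type right for each gene. AT4G36430 and AT5G39580 have the widest gaps, and the 3 genes at the right end are the lower ones.

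Structural and loosening proteins of the wall also rose in part, beside 3.75% higher and 1.70% lower calls over all probe sets. Of 15 extensins, hydroxyproline-rich proteins that form a network in the wall, 6 were higher and 0 lower, with a median difference of 0.19. Some probe sets of this repetitive family end in _x_at, the array maker's mark for probes that may also bind other transcripts, so signals of close relatives may be mixed. AT3G28550, on a probe set without that mark, had 8.09, 8.36 and 8.22 in the overexpressor, against 7.49, 7.51 and 7.54 in wild type (0.70, SE 0.09, adjusted p = 0.00147). AT3G54580, also without it, had 4.68, 5.26 and 4.58 in the overexpressor, against 3.70, 3.83 and 4.01 in wild type (0.99, SE 0.16). Without wild-type replicate 2, 4 extensins passed. Among 19 expansins, which loosen walls, 4 were higher and 1 lower. The root hair markers EXPA7 and EXPA18 above are expansins too, so this count and that of the markers are not independent. EXLB1 had 4.07, 4.22 and 3.94 in the overexpressor, against 2.89, 3.21 and 3.15 in wild type, while EXPB1 fell by 0.73 (SE 0.08, adjusted p = 0.000482), so members of one family moved in opposite directions. Among the alternatives, 4 expansins were higher only with array weights. The higher count was 2 with only the 6 arrays compared, without wild-type replicate 1 or without wild-type replicate 2. In all other alternatives it was 3.

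Enzymes of xyloglucan, the polymer that ties cellulose fibres together, were likewise split. Over all probe sets 3.75% were higher and 1.70% lower. XTH20 had 4.69, 5.54 and 4.75 in the overexpressor, against 2.92, 2.63 and 2.85 in wild type (2.19, SE 0.19), and XTH16 had 6.19, 6.36 and 6.38 in the overexpressor, against 7.07, 7.17 and 7.15 in wild type (-0.82, SE 0.08, adjusted p = 0.000223). The other 8 of 10 measured XTH genes did not pass, although XTH33 (0.36) passed as higher without wild-type replicate 3, and XTH21 (-0.28, adjusted p = 0.0562) passed as lower in 7 alternatives. CSLC12, of the family that makes the xyloglucan backbone, rose by 0.90 (SE 0.14, adjusted p = 0.00347). Of 15 GH9 endoglucanases, which cut cellulose-type chains, GH9C1 rose by 0.92 (SE 0.13) and GH9B13 by 0.46 (SE 0.07), and GH9C3 fell by 0.54 (SE 0.10), and GH9B6 stood at -0.33 (SE 0.08, adjusted p = 0.0331), a call that was lost in 8 alternatives.

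Pectin enzymes followed. The pectate lyase-like gene AT5G04310 has 2 probe sets, and both were higher: one had 6.61, 6.91 and 6.87 in the overexpressor, against 5.14, 5.05 and 5.52 in wild type, and the other had 4.61, 4.78 and 4.81, against 3.15, 3.47 and 3.59. The measured differences were 1.56 and 1.33, so 2 separate sets of probes gave about the same size in this gene. Of 144 genes with several probe sets, 12 had at least 1 call. In 6 of these all probe sets were called in the same direction, and in 6 only some were called. Opposite calls occurred in 0 genes. In all, 3 of 24 pectate lyase-like probe sets were higher and 0 lower, against 3.75% and 1.70% of all probe sets. Only 2 were higher without wild-type replicate 1 or without overexpressor replicate 3. This list was chosen after values were seen, so its count is no independent evidence. Of 4 pectin methylesterases, which demethylate pectin, 2 were higher and 1 lower. ATPMEPCRB rose by 0.89 (SE 0.09, adjusted p = 0.00028) and PMEPCRF by 0.86 (SE 0.15), and AT4G02300 fell by 0.37 (SE 0.09, adjusted p = 0.0329), a call that was lost in 10 alternatives. EXO, known to act in cell expansion, was lower, with 6.36, 6.39 and 6.25 in the overexpressor, 7.13, 6.77 and 6.78 in the mutant and 7.56, 7.63 and 7.67 in wild type. The mutant arrays also lay below all wild-type arrays, as in 3.96% of all probe sets. Their difference of -0.73 (SE 0.10) did not pass (limma adjusted p = 0.071).

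**Figure D3:**
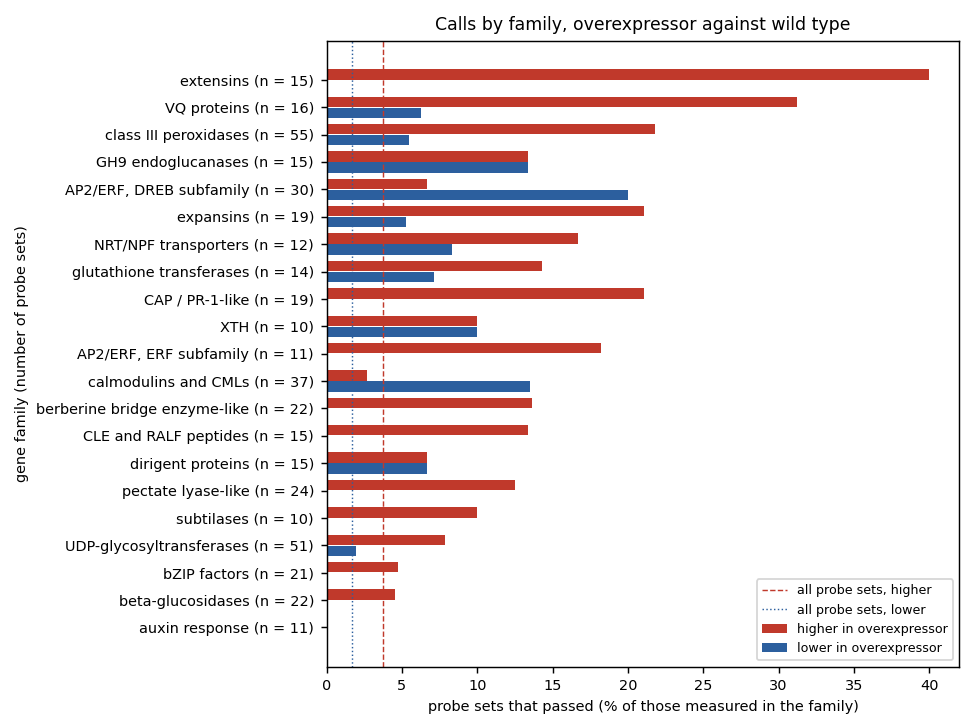
Share of the measured probe sets of each family that passed (horizontal axis, %), higher in the overexpressor in red and lower in blue, with the shares over all probe sets as vertical lines at 3.75% and 1.70%. Extensins reach 40.0% higher and none lower, and the DREB subfamily has more lower than higher calls.

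Other secreted and defence-related families had fewer calls, to be set against 3.75% higher and 1.70% lower over all probe sets. CAP proteins, secreted proteins of the PR-1 type, had 4 of 19 higher and 0 lower. The count stayed at 4 with any single array left out. The CAP list was chosen after values were seen, so its count is no independent evidence. AT4G33730 had 8.19, 8.36 and 8.01 in the overexpressor, against 6.80, 6.92 and 7.53 in wild type, and AT4G30320 had 7.82, 8.22 and 7.80, against 6.52, 6.44 and 7.30. In both the third wild-type array was again the highest of its group, without reaching the overexpressor. Berberine bridge enzyme-like oxidases had 3 of 22 higher and 0 lower, and AT1G30700 had 7.47, 7.58 and 7.75 in the overexpressor, against 6.14, 5.80 and 6.01 in wild type. Of 15 dirigent proteins, which steer the coupling of lignin-type radicals, AT3G13650 rose by 1.13 (SE 0.14) and AT4G11210 fell by 0.79 (SE 0.11). Without wild-type replicate 3, 4 dirigent genes were higher. The dirigent list too was chosen after values were seen. AT2G43590, of the chitinase family, rose by 1.33 (SE 0.13, adjusted p = 0.000347), and ATSBT5.2, a subtilisin-type protease, by 1.40 (SE 0.21).

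Among transcription factors, the family of ERF115 itself moved both ways. Of 41 AP2/ERF genes measured, 4 were higher and 6 lower, against 3.75% and 1.70% of all probe sets. The lower ones were all among the 30 members of the DREB subfamily, where 2 were higher. In the ERF subfamily, 2 of 11 were higher and 0 lower. The difference between the subfamilies was not tested. The lists of the family and its subfamilies were chosen after values were seen, so their counts are no independent evidence. LEP, known for its effect on leaf petiole development, had 8.23, 8.07 and 8.14 in the overexpressor, 7.56, 7.42 and 7.46 in the mutant and 7.19, 7.10 and 7.12 in wild type. AT5G61590, known as DEWAX, a repressor of wax genes, had 5.70, 5.25 and 5.75 in the overexpressor, 4.49, 5.19 and 4.82 in the mutant and 4.42, 4.57 and 4.51 in wild type. AT4G39780 had 5.90, 6.09 and 6.07 in the overexpressor, 4.94, 5.20 and 4.84 in the mutant and 4.71, 4.52 and 4.76 in wild type. In these 3 genes the overexpressor arrays lay above all wild-type arrays, as in 9.26% of all probe sets. ORA47, which activates genes of jasmonate synthesis, had 3.26, 3.58 and 3.14 in the overexpressor, 4.08, 3.77 and 3.51 in the mutant and 4.19, 4.78 and 4.32 in wild type. AT1G44830 had 5.30, 5.41 and 5.04 in the overexpressor, 5.77, 5.34 and 5.58 in the mutant and 5.90, 6.16 and 6.18 in wild type. The mutant arrays of LEP, AT4G39780, ORA47 and AT1G44830 were also separate from wild type, on the same side as the overexpressor. Over all probe sets the mutant arrays lay above wild type in 4.19% and below in 3.96%. Both comparisons use the same wild-type arrays, so a shift to the same side is partly built in. None of these 4 genes passed in the mutant (limma adjusted p = 0.478, 0.884, 0.76 and 0.641 in that order). The count of lower DREB genes was 4 without wild-type replicate 3, and also 4 with only the 6 arrays compared.

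VQ proteins, small nuclear partners of WRKY transcription factors, had 5 of 16 higher and 1 lower, against 3.75% and 1.70% of all probe sets. The VQ list was chosen after values were seen, so its count is no independent evidence. AT2G22880 had 5.62, 5.46 and 5.82 in the overexpressor, against 4.23, 4.40 and 4.36 in wild type, and AT4G15120 had 5.25, 5.61 and 5.54, against 4.42, 4.02 and 4.72. AT1G80450 rose by 0.96 (SE 0.13) and AT5G65170 by 0.60 (SE 0.11), both from low levels. AT3G56880 was the lower one, with 8.09, 8.40 and 8.25 in the overexpressor, against 8.71, 8.95 and 9.02. Averaged over all 9 arrays, the 5 higher genes lie below the middle of all levels. A filter that keeps only probe sets above the median mean therefore removes them. With the filter at a log2 value of 5 on 3 arrays, 2 VQ genes were higher. WRKY47 was the 1 of 7 WRKY genes that passed (0.66, SE 0.11, adjusted p = 0.00556).

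**Figure D4:**
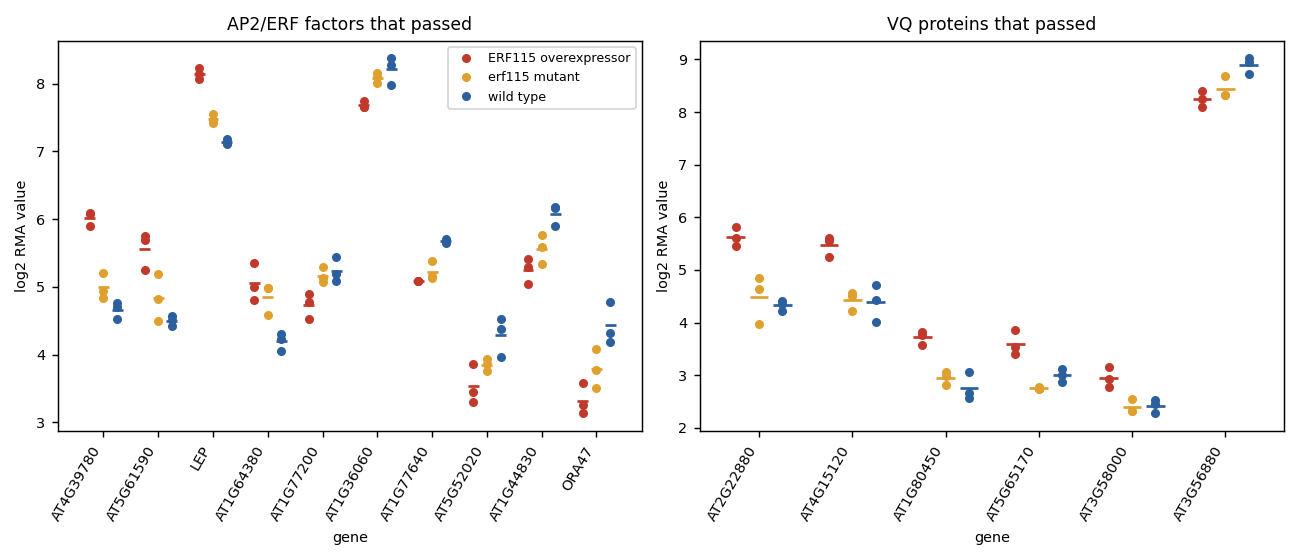
Log2 RMA values of the AP2/ERF genes (left panel) and VQ genes (right panel) that passed, 1 point per array and a bar for the mean, with the overexpressor left, the mutant next and wild type right for each gene. In the left panel the 4 higher genes come first and the 6 lower ones follow, and in the right panel AT3G56880 is the lower gene.

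Most genes of hormones and signals that were looked up were not measured under a name. None of 23 genes of a first jasmonate list and none of 10 brassinosteroid genes was measured. For ethylene it was 1 of 22 and for cytokinin 2 of 17. The calls below therefore do not describe whole hormone pathways. AT2G38240, a jasmonate oxidase that inactivates jasmonic acid, had 4.28, 4.46 and 4.27 in the overexpressor, against 3.03, 3.21 and 3.27 in wild type, and its relative AT5G05600 rose by 0.54 (SE 0.08, adjusted p = 0.0043). The other 2 of these 4 enzymes did not pass, and their list was chosen after values were seen. UGT76C2, which inactivates cytokinins by adding glucose, had 6.25, 6.26 and 6.14 in the overexpressor, against 5.24, 4.95 and 5.03 in wild type. It was 1 of 4 higher UDP-glycosyltransferases of 51 measured, with 1 lower, against 3.75% and 1.70% of all probe sets. UGT73D1 rose most, by 1.42 (SE 0.10), and UGT78D3 fell by 0.33 (SE 0.07, adjusted p = 0.0172), a call that was lost with only the 6 arrays compared and without wild-type replicate 1, wild-type replicate 2 or overexpressor replicate 2. PSY1R, a receptor kinase for a growth-promoting sulfated peptide and the 1 measured gene of the phytosulfokine list, rose by 0.56 (SE 0.10). The peptide genes CLE41, which acts in vascular development, and RALFL27 rose by 0.62 (SE 0.09) and 0.72 (SE 0.11), and 13 of the 15 CLE and RALF genes measured did not pass. Of 32 auxin response genes looked up, 11 were measured. None of these 11 passed in limma, with a median difference of 0.03.

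Metabolism and transport gave a few members, beside 3.75% higher and 1.70% lower calls over all probe sets. AT1G47400, known as IMA1, a short peptide that promotes iron uptake, had 4.38, 4.72 and 4.97 in the overexpressor, against 2.96, 3.18 and 3.09 in wild type (1.61, SE 0.13, adjusted p = 0.000109). BHLH101, a factor of the iron deficiency response, rose by 0.60 (SE 0.10). Of 28 genes of that response looked up, only 6 were measured under a name, and the other 4 of these did not pass. Without wild-type replicate 3, 3 genes were higher. Both glucosinolate transporters rose: GTR1 had 7.15, 7.41 and 7.29 in the overexpressor, against 6.48, 6.63 and 6.61 in wild type, and GTR2 had 6.41, 7.04 and 6.54, against 5.73, 5.55 and 5.88. The related transporter AT3G21670, known as NPF6.4, fell by 0.77 (SE 0.09, adjusted p = 0.00098). Of 12 NRT/NPF transporters measured, 2 were higher and 1 lower. BGLU46, a glucosidase known to act on monolignol glucosides, had 6.46, 6.71 and 6.53 in the overexpressor, against 5.18, 5.09 and 5.42 in wild type. ATGSTF13, a glutathione transferase, had 5.11, 4.83 and 4.90 in the overexpressor, against 6.64, 6.24 and 6.61, while GSTU27 of the same superfamily rose by 0.66 (SE 0.11). Of 14 glutathione transferases measured, 2 were higher and 1 lower. The higher count varied from 1 to 2 when single arrays were left out.

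The decreases held many genes that respond within minutes to touch or wounding. Of 12 such genes measured, 10 were lower and 0 higher, with a median difference of -1.25 against -0.02 over all probe sets. The list was written with earlier results of these data known, so the count is no independent evidence. Calcium sensors were among them. Of 37 calmodulins and calmodulin-like proteins (CMLs), 5 were lower and 1 higher, against 1.70% and 3.75% of all probe sets. The higher count varied from 0 to 2 genes when single arrays were left out. The calmodulin list was chosen after values were seen, so its count is no independent evidence either. CML23 had 5.37, 6.25 and 5.68 in the overexpressor, 6.70, 6.73 and 6.54 in the mutant and 7.23, 7.43 and 7.29 in wild type. CML38 had 4.21, 4.57 and 4.39 in the overexpressor, 5.33, 4.73 and 4.76 in the mutant and 5.21, 5.91 and 5.26 in wild type. AT1G76640, known as CML39 and the neighbour of CML38 on the chromosome, had 5.91, 6.54 and 6.01 in the overexpressor, 7.16, 6.42 and 6.66 in the mutant and 7.43, 7.77 and 7.67 in wild type. In CML23 and AT1G76640 the mutant arrays also lay below all wild-type arrays, as in 3.96% of all probe sets, and neither gene passed in the mutant (adjusted p = 0.755 for CML23 and 0.58 for AT1G76640).

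STZ, a zinc finger repressor of stress responses, had 4.81, 5.69 and 5.20 in the overexpressor, 5.95, 5.57 and 5.44 in the mutant and 6.17, 6.60 and 6.27 in wild type. AT4G27280, an EF-hand protein, had 7.37, 8.00 and 7.59 in the overexpressor, 8.57, 8.24 and 8.18 in the mutant and 8.93, 9.12 and 9.40 in wild type. The second overexpressor array was the least reduced in both. Against wild type the mutant had 1 higher (0.00440%) and 2 lower (0.00879%) probe sets in all. The overexpressor and mutant comparisons share the wild-type arrays, so their differences move together through those arrays. All tips were cut at harvest, and no label gives the time from cutting to freezing for a single sample, so the part of handling in these values was not tested.

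Beyond the families, 1 rule chose the 30 largest named increases and the 30 largest decreases with separate arrays. The smallest increase among them was 1.30, in AT1G05710, a bHLH gene, and the smallest decrease was -0.74, in AT1G67910. Increases of rank 11 to 30 include AT1G55200 (1.57, SE 0.09), of the protein kinases, AT1G33590, a leucine-rich repeat protein (1.49, SE 0.13), AT3G18280, of the lipid transfer proteins (1.42, SE 0.14), and GAT1_2.1, a glutamine amidotransferase-like gene (1.35, SE 0.12). AT1G33590 had 7.84, 7.66 and 7.86 in the overexpressor, against 6.44, 6.49 and 5.97 in wild type. Decreases of rank 11 to 30 include the GDSL lipase genes AT2G40250 (-1.04, SE 0.17) and AT3G16370 (-0.84, SE 0.11). AT3G16370 had 3.71, 3.50 and 3.33 in the overexpressor, 4.54, 4.58 and 4.79 in the mutant and 4.29, 4.29 and 4.50 in wild type, so all mutant arrays stood above wild type here, as in 4.19% of all probe sets.

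**Figure D5:**
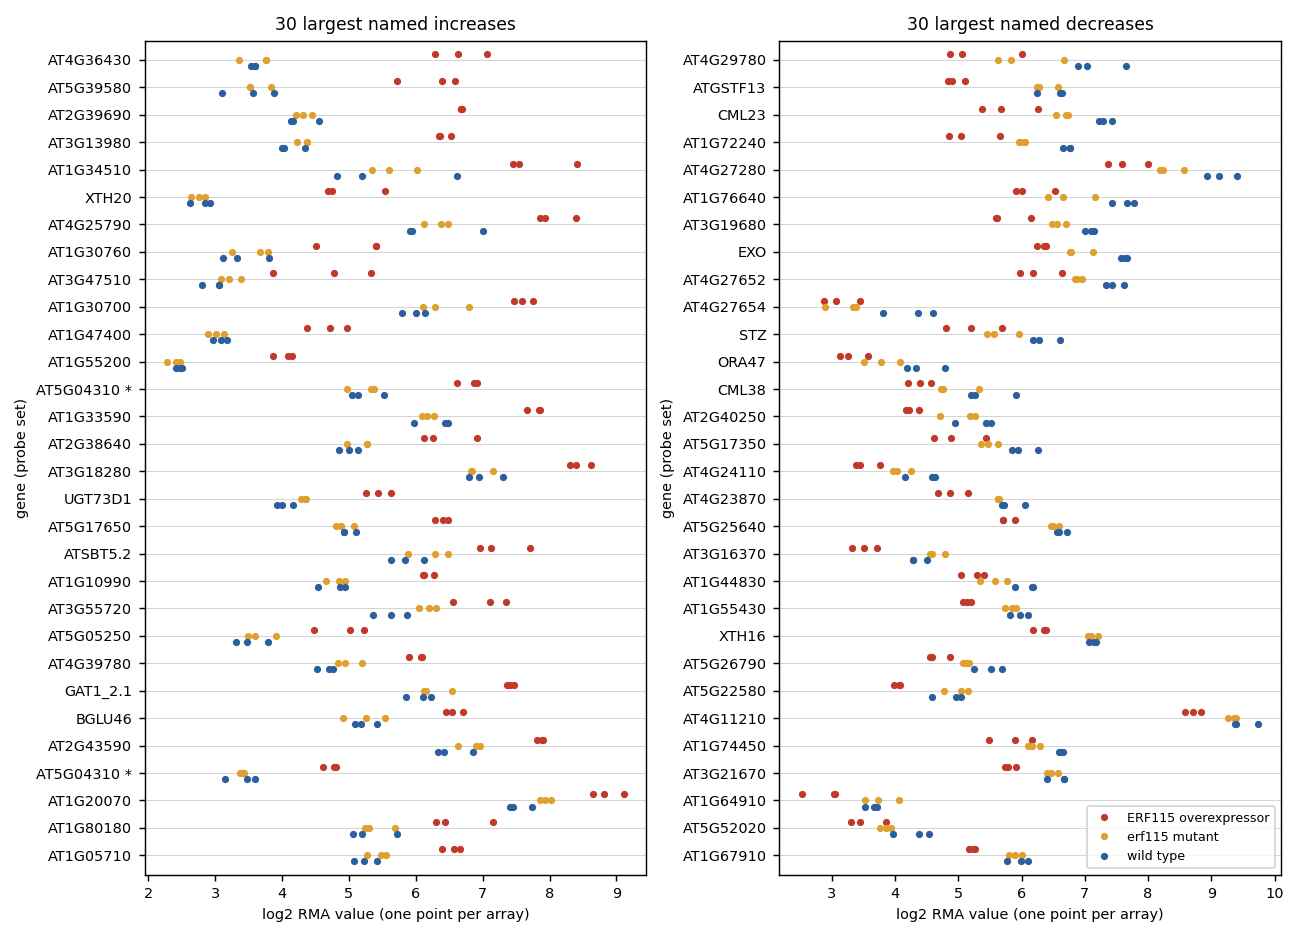
Log2 RMA values of the 30 largest named increases (left) and decreases (right), 1 point per array (horizontal axis) and 1 row per probe set, with the overexpressor in red drawn above the mutant in yellow and wild type in blue; an asterisk marks a gene with more than 1 probe set shown. Among the decreases many mutant points lie between those of the overexpressor and wild type, and among the increases most mutant points lie near wild type.

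Some of the strongest differences could not be named, and whether any of them measures the ERF115 transcript itself was not tested. Probe set 250622_at had 10.23, 10.05 and 9.89 in the overexpressor, 2.16 ± 0.20 in the mutant (SD, n = 3) and 2.20, 2.15 and 2.17 in wild type, and 267158_at had 7.07, 7.55 and 7.58 in the overexpressor, 4.22, 4.07 and 3.99 in the mutant and 4.01, 4.01 and 3.97 in wild type. The largest decreases were in 247925_at (-2.25) and 254120_at (-1.70). Unnamed probe sets held 408 of the higher and 169 of the lower calls, on 8730 probe sets, so the families above describe only the named share of the response.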

How the data were processed

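Per the labels, biotin-labelled total RNA was hybridised to 1-colour Affymetrix arrays, 3 per genotype. The deposited values are log2 RMA values, made by the authors with affy 1.36 per the submitters' processing notes. RMA sets all arrays to a common distribution, so a shift shared by most transcripts would be removed, and it compresses differences near background. Of 22810 probe sets, 64 controls were left out. Gene names come from the probe annotation of the array platform, updated with RefSeq (TAIR10.1): 13513 probe sets have 1 gene, of which 13436 matched, 503 have several and 8730 none. Equal values on at least 2 arrays occur in 56.5% of probe sets.

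The model was lmFit and eBayes of limma 3.58.1 under R 4.3.3, with 1 mean per genotype over all 9 arrays, 6 residual and 4.49 prior degrees of freedom, and Benjamini-Hochberg adjustment over 22746 probe sets at a threshold of 0.05. The number of arrays limits precision (median SE 0.088). Differences are overexpressor minus wild type on the log2 scale, with levels given per array. The members, lists and rules were chosen with earlier results of these data known. The rule names the 30 largest increases and decreases among called probe sets with 1 gene and separate arrays, up to 6 members per list by smallest p, and 2 unnamed probe sets per direction. Chosen only after values were seen were 9 lists (AP2/ERF with its DREB and ERF subfamilies, calmodulins, CAP, pectate lyase-like, dirigent, VQ and jasmonate oxidases), the dropping of 13 name-pattern families whose matches were wrong, few or covered by a list, the control pairs, and family counts under other settings. List loci were written from memory. There were 17 alternatives of the fit.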

Additional observations from a re-analysis of the deposited data

How the results depend on the processing

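The counts of 854 higher and 387 lower probe sets became 825 and 489 with quantile normalization, 727 and 416 with the filter on means, 795 and 436 with the filter at a log2 value of 5 on 3 arrays, 1020 and 494 with an intensity trend and 1112 and 527 with array weights. With only the 6 arrays compared 581 were higher and 226 lower. With single arrays left out the higher count ranged from 522 to 976 (522 without wild-type replicate 1, 540 without wild-type replicate 2) and the lower count from 226 (without overexpressor replicate 3) to 377. Of the 60 probe sets named by size, 58 kept their call in all alternatives that tested them. AT1G64910 lost it without wild-type replicate 2 or 3, and AT5G52020 with only the 6 arrays and without wild-type or overexpressor replicates 2 or 3. Of all 636 named probe sets called, 318 kept their call throughout, and 0 results reversed. The mean filter takes low members out of families, so that VQ genes had 0 higher, XTH 0 higher and lower DREB genes 3. With the replicate number as a replicate block 885 were higher and 379 lower. Deviations from the group means of overexpressor and wild-type arrays with the same number correlated at 0.06, -0.21 and -0.08. No overexpressor array correlated best with the wild-type array of its own number. With 3 arrays per genotype these values cannot decide whether arrays with the same number were handled together. The actin control difference was 0.02 with the Athal pair and -0.16 with the r2 pair, against -0.07 with both, and that of GAPDH -0.24 and -0.02, against -0.13. These pairs were chosen after the data were seen.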
